A study of Zea mays with 12 samples.

Results

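Nucleoside diphosphate kinases (NDPKs) were examined here through the 9 maize genes that the deposited annotation places under the KEGG entry K00940, out of 33589 genes listed in the table. Of these 9 genes, 8 passed the filter on low values and were tested, among 22985 tested genes. The exception was LOC103648618, the gene with the fewest reads, whose values are given without a main test.

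RNA was measured in isolated seed embryos of 2 maize inbred lines, numbered 55 and 102, which the study chose as tolerant and as sensitive to low temperature at germination. All seeds were first imbibed for 6 h at 25 °C. They then spent 2 h either at 25 °C (the control, CT) or at 10 °C (low temperature, LT), which gave the groups CT_55, CT_102, LT_55 and LT_102 with 3 libraries in each. The libraries of a group are described as biological replicates. The sources do not say how many embryos entered each library, and p-values measure only the spread between these samples. Each line is a single inbred, so a difference between the lines is a difference between 2 genotypes and cannot be assigned to tolerance.

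NDPKs move the terminal phosphate from one nucleoside triphosphate, usually ATP, to a nucleoside diphosphate, and so keep the pools of GTP, CTP, UTP and their deoxy forms supplied for RNA, DNA, protein and polysaccharide synthesis. The phosphate passes through a histidine of the enzyme. Plants carry several types: type 1 is cytosolic and usually the most abundant, type 2 is imported into chloroplasts, and further types act in mitochondria or chloroplasts. In Arabidopsis, NDPK2 is also placed in the signalling branch that starts from hydrogen peroxide, with the kinases OXI1, ANP1, MPK3 and MPK6.

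The gene that the study singled out from this family is si618049h06(54), the Zm00001d039219 of the maize genome database and LOC100276315 of RefSeq. Its qRT-PCR primers, as given by the study, are shown because they define the transcript that was followed outside the RNA-seq. They are 24 and 20 bases long and were not placed on the genome here, and the qRT-PCR itself was not analysed here.
Forward primer: agaaactttacgaaccgaaatagc
Reverse primer: aagccagtcatccacatcag

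The annotation of the 9 genes was checked first. In 7 of them the Gene Ontology terms of the table include nucleoside diphosphate kinase activity. LOC103650665, described as protein FAM135B, and pco149655(717), an uncharacterized protein, instead carry carboxylic ester hydrolase activity and cellular lipid metabolism. Apart from the KEGG entry and its pathways, nothing in the table marks them as NDPKs, and they are named apart from the 7 below. The gene si618049h06(54) has the kinase term together with nucleus and chloroplast, whereas its description is that of an uncharacterized protein. The study gives proteins with a pleckstrin homology domain as its best matches in Arabidopsis and rice. A RefSeq gene list (assembly Zm-B73-REFERENCE-NAM-5.0, used for names only) matched 8 of the 9 genes and gave LOC100217209 the synonym ZmNDPK1.

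The genes lie on 7 chromosomes of B73 RefGen_v4, and no listed gene overlaps any of them. LOC100217209, described as NDPK 1, lies on chromosome 1 at 96901110 to 96903190, minus strand. LOC100381602, also described as NDPK 1, lies on chromosome 7 at 155153846 to 155156140, minus strand. On chromosome 6, plus strand, si618049h06(54) at 173069204 to 173071690 and LOC100283855 at 173160287 to 173162244 are separated by 88596 bases with 0 listed genes between them. The remaining genes are pco069028 (chromosome 8, 80508570 to 80511386, minus strand), LOC100283790 (NDPK 2, chromosome 10, 23764465 to 23769935, minus strand) and LOC103648618 (NDPK IV, chloroplastic or mitochondrial, chromosome 2, 48469510 to 48470207, plus strand). LOC103650665 lies on chromosome 3 at 143139515 to 143145889 and pco149655(717) on chromosome 10 at 8653561 to 8659906, both on the plus strand. The gene nearest to LOC100283855 is 28 bases away on the other strand, and the library kit named in the labels does not mark strand.

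Levels are given as CPM, the count of a gene scaled to a common total for every library. The deposited FPKM could not be used to rank the genes. The length that FPKM implies for a gene (CPM divided by FPKM) was constant over the libraries but did not follow the span of the gene. This was checked in 8520 genes with 1 listed transcript and more than 100 counts in every library. Across them the Spearman correlation of implied length and span was -0.0092, and in 18.2% the implied length exceeded the whole span. Among the 9 genes the clearest case was LOC103648618, which spans 698 bases and has an implied length of 3999 bases. LOC100381602 has an implied length of 2387 bases against a span of 2295. Both exceed what a transcript of the gene can be. FPKM therefore compares libraries within a gene here, but not genes with one another. CPM does not correct for transcript length either, so an order of CPM is an order of read numbers. The filter on low values still used FPKM. The set of 22985 tested genes, and each percentage of it, therefore depends on these lengths. The choice of genes for the correlations further below used FPKM too.

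**Figure D1:**
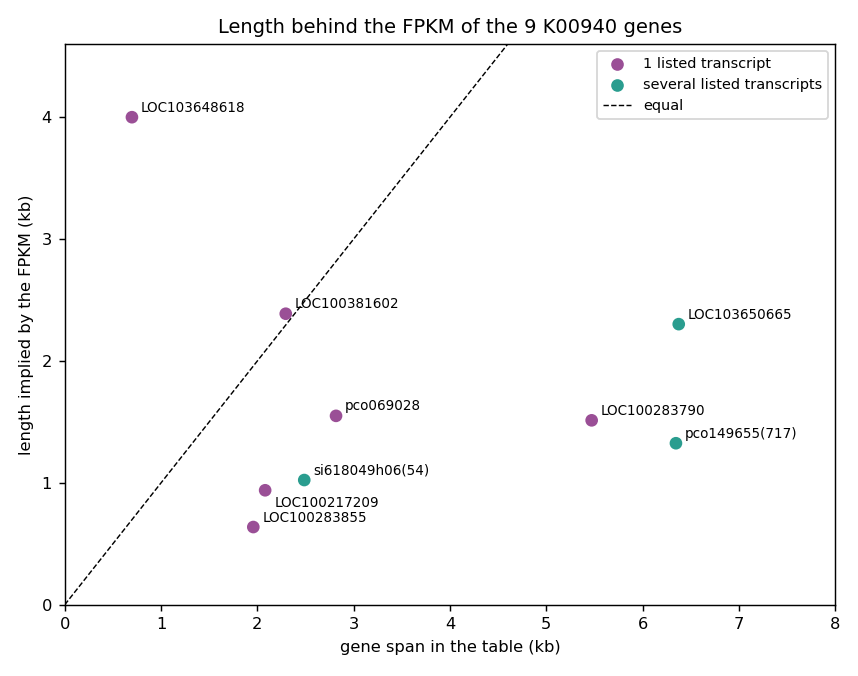
Span of each K00940 gene in the table (horizontal axis, kb) against the length implied by its FPKM (vertical axis, kb), 1 point per gene, with the dashed line marking equality. LOC103648618 and LOC100381602 lie above the line, with implied lengths of 3999 and 2387 bases against spans of 698 and 2295 bases.

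The libraries held 44028579 to 67873652 counts. Across genes, replicates correlated at 0.981 to 0.994 and libraries of different lines at 0.854 to 0.870 in log2 CPM. The embryo origin was visible in 9 marker genes of the embryo (globulins, oleosins, dhn1 and vp1), which summed to 45683 to 71057 CPM. The 34 listed endosperm markers (zeins and starch genes) summed to 26.5 to 39.8 CPM in line 55 and 8.03 to 15.6 CPM in line 102, and 1 of them had 3 counts or fewer in every library. The embryo markers summed to 45683 to 49284 CPM in line 55 against 54306 to 71057 CPM in line 102, where LT_102 (54306 to 59029) lay below CT_102 (68546 to 71057). The part of either marker difference in the results below was not tested. In bulk embryos, fewer cells of a type and less RNA per cell cannot be told apart.

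The 9 genes of the family together took 701 to 851 CPM over the 12 libraries (median 794). This sum overlapped between the lines at 25 °C. At 10 °C it was 701 to 759 CPM in LT_55 and 823 to 833 CPM in LT_102, without overlap. Of single tested genes, 68.9% also showed no overlap there. LOC100217209 supplied most of the sum, with 439 CPM in the lowest library, a median of 465 and 564 in the highest. Only 0.616% of the listed genes had a higher mean CPM. LOC100381602 followed with 144 to 178 CPM (median 160). Next came pco069028 with 43.3 to 124 CPM (median 78.1). The median was 22.7 CPM for pco149655(717) and 17.2 CPM for LOC103650665, the 2 genes without the kinase term. It was 14.4 CPM for LOC100283855, 11.2 CPM for LOC100283790 and 5.68 CPM for si618049h06(54). In this order pco149655(717) (19.5 to 29.0 CPM) stayed just above LOC103650665 (12.01 to 19.1 CPM) in every library, whereas from LOC103650665 on the range of each gene overlapped with that of the next.

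LOC103648618, the gene annotated to a chloroplast or mitochondrial NDPK, had 41 to 103 counts per library. In CT_55 its replicates had 0.931, 1.03 and 0.884 CPM, and in LT_55 1.14, 0.830 and 1.52 CPM. In CT_102 they had 1.11, 1.08 and 1.26 CPM, and in LT_102 1.87, 1.06 and 1.33 CPM. The 2 lines did not overlap at 25 °C and overlapped at 10 °C, and the temperatures overlapped in both lines. It missed the filter because its FPKM was 0.207 to 0.467, a value that divides by the implied length of 3999 bases. Per kb of its short span it had 1.19 to 2.67 CPM, which is a lower bound on the level per transcript length, since a transcript cannot be longer than the span. When the filter was set on CPM instead, an alternative chosen after seeing the data, the log2 difference between the lines was 0.23 (SE 0.32) at both temperatures. The log2 response to 10 °C was 0.29 (SE 0.32) in line 55 and 0.30 (SE 0.32) in line 102, and none of these values passed the test.

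**Figure D2:**
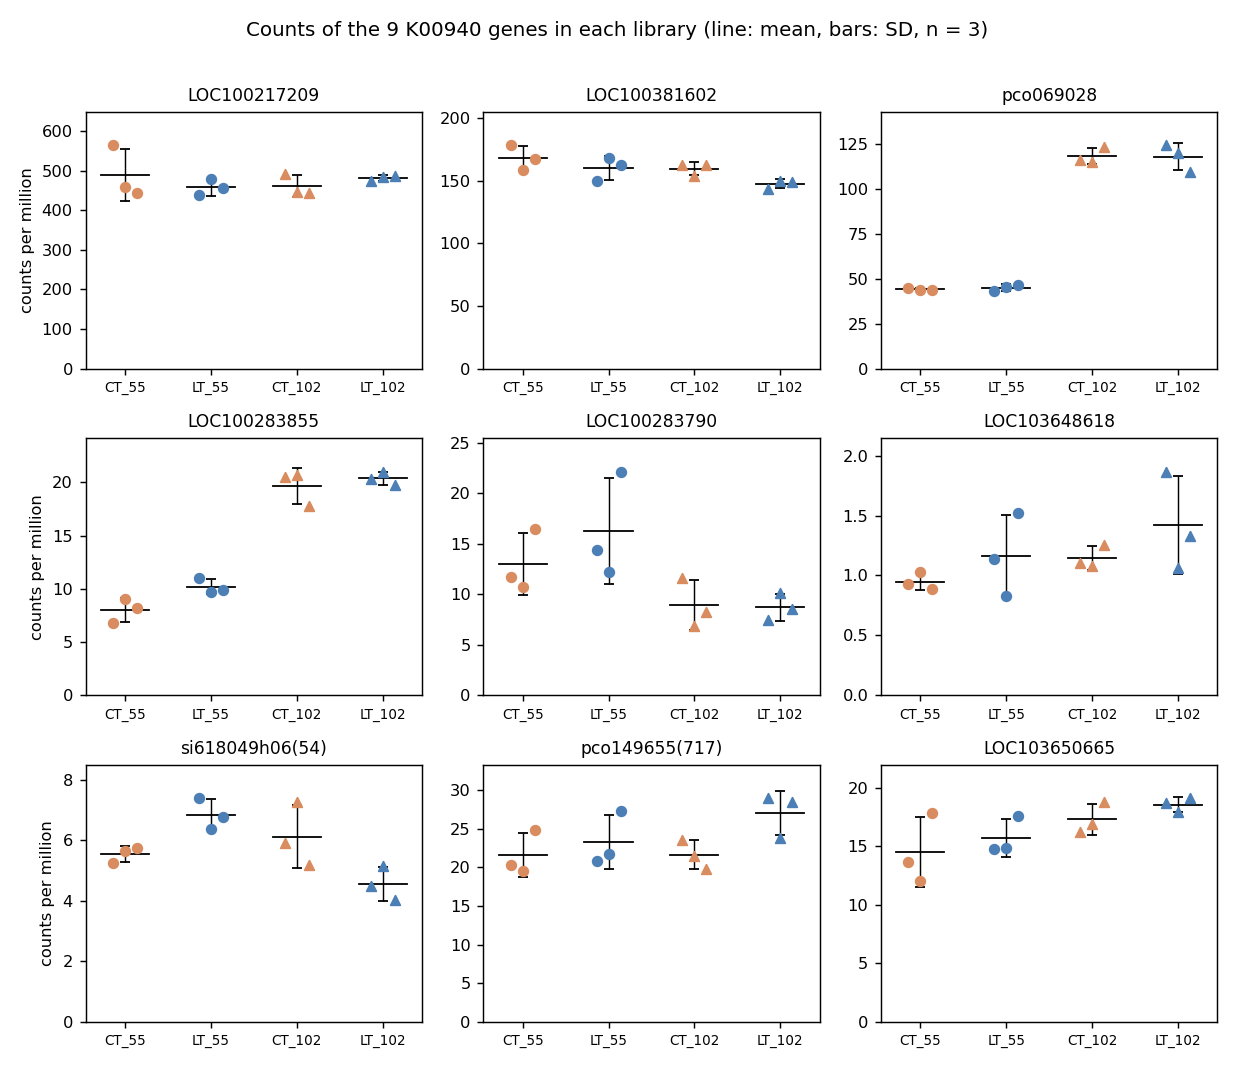
CPM (vertical axes, each from 0) of the 9 K00940 genes in the 12 libraries, by group, with orange for 25 °C, blue for 10 °C, circles for line 55 and triangles for line 102; the horizontal line is the mean and the bars are the SD of 3 libraries. The step between the lines stands out in pco069028 (43.3 to 46.8 against 109 to 124 CPM), and in si618049h06(54) the order of the lines differs between the temperatures.

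The first question was which NDPK genes differ between the lines at each temperature. A gene was called between lines when its log2 fold change was 0.585 or more in either direction (a 1.5-fold difference) and its unadjusted p-value was under 0.05. At 25 °C, 3 of the 8 tested genes were called, pco069028 and LOC100283855 as higher and LOC100283790 as lower in line 102. The same rule called 48.1% of the tested genes as a whole, 24.3% of them higher and 23.8% lower. At 10 °C, 4 of 8 were called, with si618049h06(54) as a further gene lower in line 102, against 51.1% of all tested genes (25.1% higher and 26.1% lower). The share of these 8 genes that differed was thus near or below that of all genes. LOC103650665 and pco149655(717), which lack the kinase term, are among the 8 and were called at neither temperature. The called share is therefore higher among the tested genes that carry the term. The median absolute log2 difference of the 8 genes was 0.17 at 25 °C and 0.41 at 10 °C, and over all tested genes it was 0.64 and 0.70. The genes without the kinase term enter the medians of the 8 as well.

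The gene with the largest difference was pco069028, an unnamed gene with the NDPK terms. Its CPM was 44.8, 43.7 and 43.7 in CT_55 and 116, 115 and 123.2 in CT_102. At 10 °C it was 43.3, 45.2 and 46.8 in LT_55 and 124, 120 and 109 in LT_102. Every library of line 102 lay above every library of line 55, and the 2 temperatures overlapped within each line. The edgeR quasi-likelihood test gave a 2.60-fold difference at 25 °C (log2 1.38, SE 0.077, adjusted p = 2.3e-08). At 10 °C the difference was 2.53-fold (log2 1.34, SE 0.077, adjusted p = 2.5e-08).

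LOC100283855, an NDPK without a type in its description, was also higher in line 102. Its CPM was 6.81, 9.04 and 8.18 in CT_55, and 20.5, 20.7 and 17.8 in CT_102. In LT_55 it was 11.01, 9.715 and 9.87 CPM, against 20.3, 21.0 and 19.8 CPM in LT_102. The lines did not overlap at either temperature. It was 2.37-fold higher in CT_102 than in CT_55 (log2 1.25, SE 0.12, adjusted p = 2.5e-06). Between LT_102 and LT_55 the fold was 1.94 (log2 0.95, SE 0.12, adjusted p = 2.1e-05).

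LOC100283790, described as NDPK 2, the type that is imported into chloroplasts in other plants, had the opposite direction. Its CPM was 11.7, 10.8 and 16.5 in CT_55 and 11.6, 6.81 and 8.25 in CT_102, so that the lines overlapped at 25 °C. At 10 °C it was 14.4, 12.2 and 22.1 CPM in LT_55 and 7.42, 10.1 and 8.57 CPM in LT_102, without overlap. It was 1.51-fold lower in line 102 at 25 °C (log2 -0.59, SE 0.26, adjusted p = 0.064). That value sits at the fold threshold, and the call was lost in 13 of 24 alternatives. Among them were the fits without CT_55 replicate 3 (log2 -0.38), CT_102 replicate 2 (-0.44), CT_102 replicate 3 (-0.56) or any of the 3 LT_55 libraries (-0.58 each). At 10 °C it was 1.93-fold lower (log2 -0.95, SE 0.26, adjusted p = 0.0065). Without LT_55 replicate 3, its highest library, the difference at 10 °C was -0.63 on the log2 scale and was still called.

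The study named si618049h06(54) from candidates near associated SNPs because the lines differed in it at 10 °C only. That choice used these same 12 libraries and the same fold and p limits. The p-values at 10 °C and of the interaction are therefore not independent of the choice. By the rule above, si618049h06(54) differed between the lines at 10 °C and not at 25 °C. At 25 °C its counts were 231, 323 and 311 in CT_55 and 337, 398 and 289 in CT_102, or 5.25, 5.62 and 5.73 CPM against 5.92, 7.25 and 5.18 CPM. At 10 °C its counts were 423, 400 and 459 in LT_55 and 212, 294 and 231 in LT_102, or 7.38, 6.38 and 6.76 CPM against 4.50, 5.13 and 4.03 CPM. The lines overlapped at 25 °C, whereas at 10 °C every library of line 55 lay above every library of line 102. Line 102 was 1.55-fold lower at 10 °C (log2 -0.63, SE 0.16, adjusted p = 0.0042), and its log2 difference at 25 °C was 0.10 (SE 0.16, adjusted p = 0.62). The value at 10 °C is close to the fold threshold. It fell below it without LT_55 replicate 1 (log2 -0.57), without LT_102 replicate 3 (log2 -0.56) and in limma on log2(FPKM + 1) (log2 -0.50), while the adjusted p-value over all alternatives stayed between 0.00068 and 0.020.

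A call at 10 °C without a call at 25 °C was found in 8.51% of all tested genes, and a call in the same direction at both temperatures in 42.6%. Whether the difference between the lines itself depends on temperature is the line by temperature interaction. For si618049h06(54) it was -0.73 on the log2 scale (SE 0.23), which was under the limit of 0.05 before adjustment but not after it (adjusted p = 0.57). Among all tested genes, 6.33% had an unadjusted p under 0.05 for this term, and 1 gene, 0.00435% of them, passed after adjustment.

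The remaining 4 tested genes were not called between the lines. LOC100217209, the main NDPK 1 gene, had 564, 458 and 443 CPM in CT_55 against 493, 445 and 445 CPM in CT_102. At 10 °C it had 439, 480 and 455 CPM in LT_55 against 473, 484 and 487 CPM in LT_102. The groups overlapped at both temperatures, with a log2 difference of -0.13 (SE 0.092) at 25 °C and 0.03 (SE 0.092) at 10 °C. LOC100381602, the second gene described as NDPK 1, had a mean of 168 ± 9.76 CPM for CT_55 and 159 ± 5.28 CPM for CT_102 (SD, n = 3). At the low temperature the means were 160 ± 9.48 CPM for LT_55 and 147 ± 3.43 CPM for LT_102 (SD, n = 3). The log2 difference of this gene was -0.12 (SE 0.076) in CT and -0.16 in LT (SE 0.076, adjusted p = 0.079). Reads that fit both NDPK 1 genes could have been divided between them, which was not checked here because no genome sequence was used. The FAM135-type gene LOC103650665 had 14.7, 14.8 and 17.6 CPM in LT_55 and 18.7, 17.9 and 19.1 CPM in LT_102, without overlap, but a log2 difference of only 0.20 (SE 0.15, adjusted p = 0.27). For pco149655(717) the log2 difference was -0.04 (SE 0.14) at 25 °C and 0.17 (SE 0.14) at 10 °C.

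In CPM the groups did not overlap for 2 of the 8 tested genes at 25 °C and for 5 of 8 at 10 °C, where 66.6% and 68.9% of all tested genes showed no overlap. The neighbouring genes si618049h06(54) and LOC100283855 had opposite directions at 10 °C.

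**Figure D3:**
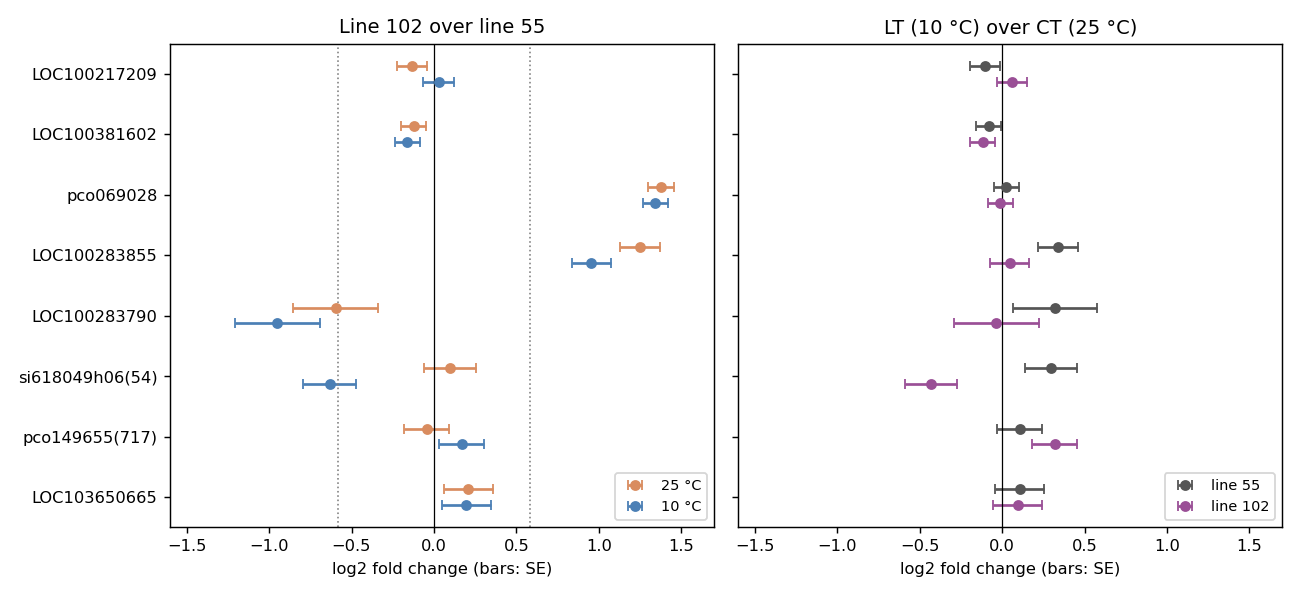
Log2 fold changes of the 8 tested K00940 genes (points) with their SE (bars), on the left for line 102 over line 55 at 25 °C (orange) and 10 °C (blue) with dotted lines at the fold threshold of 0.585, and on the right for LT over CT in line 55 (grey) and line 102 (purple). The differences between the lines ran from -0.95 to 1.38, and the responses to temperature from -0.43 to 0.34.

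The composition of the family differed between the lines. In line 55, LOC100217209 held 60.7 to 66.7% of the summed CPM of the 9 genes and pco069028 5.30 to 6.25%. In line 102, LOC100217209 held 55.5 to 58.9% and pco069028 13.2 to 15.4%. The share of LOC100381602 was 21.1 to 23.0% in line 55 and 17.4 to 20.3% in line 102, and that of LOC100283855 0.805 to 1.57% and 2.22 to 2.63%. The share of LOC100283790 was 1.39 to 2.96% in line 55 and 0.865 to 1.37% in line 102. For each of these genes the shares of the 6 libraries of line 55 and the 6 of line 102 did not overlap. The shares of the remaining genes overlapped between the lines. A share within the family has no counterpart over all tested genes. The shares of 1 library sum to 100%, so a higher share of pco069028 lowers the others. The CPM of LOC100217209 itself overlapped between the lines. That of LOC100381602 overlapped too, with log2 differences of -0.12 at 25 °C and -0.16 at 10 °C. How much each gene contributed to the shift in shares was not tested. The gene si618049h06(54) held 0.620 to 1.05% in line 55 and 0.487 to 0.921% in line 102. In the deposited FPKM, LOC100217209 held a larger part, 69.3 to 80.2% over all libraries, which also carries the implied lengths described above.

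**Figure D4:**
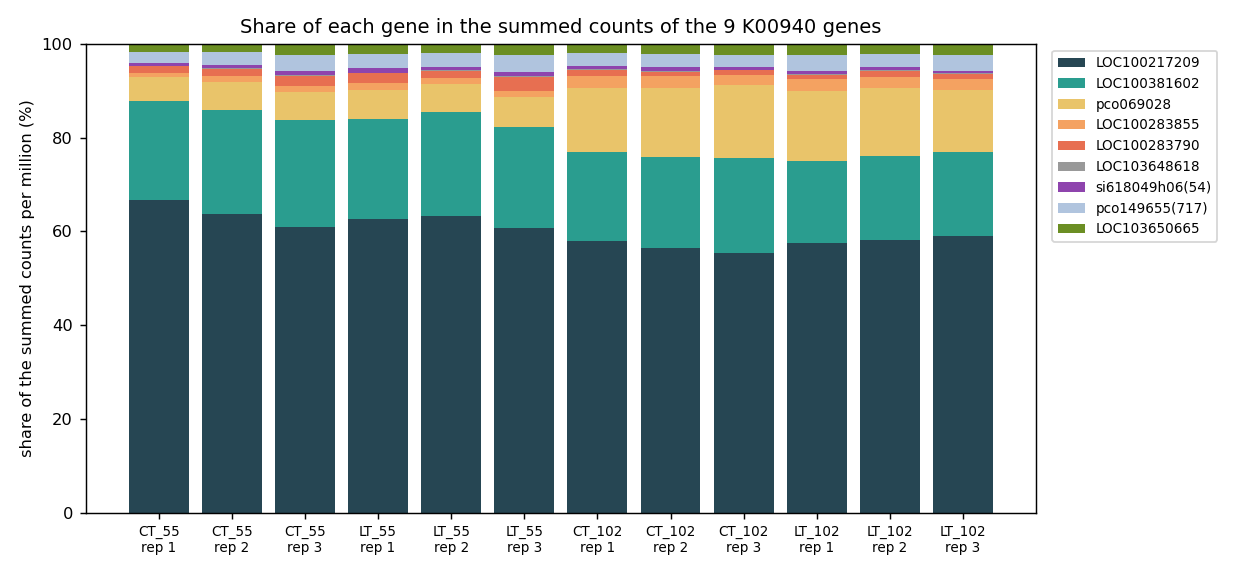
Share of each K00940 gene in the summed CPM of the 9 genes (vertical axis, %), 1 stacked bar per library. The share of pco069028 is 5.30 to 6.25% in the 6 libraries of line 55 and 13.2 to 15.4% in the 6 of line 102.

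The second question was which NDPK genes respond to 2 h at 10 °C within a line. Here a gene was called at a Benjamini-Hochberg adjusted p-value under 0.05. By the edgeR test 0 of the 8 genes were called in line 55, where 0.0522% of all tested genes were called, and 0 in line 102, where 0.679% were. On the average of both lines 0 were called, against 0.618% of all tested genes. DESeq2 and limma also called 0 of the 8 in each of these comparisons and in the interaction. The share of all tested genes that these 2 methods called is not given. At an unadjusted p under 0.05 there was 1 gene in line 55 (4.43% of all tested genes), 2 in line 102 (13%), 2 on the average (12.6%) and 1 in the interaction.

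The gene under that unadjusted limit in line 55 was LOC100283855, whose LT_55 libraries (9.715 to 11.01 CPM) all lay above its CT_55 libraries (6.81 to 9.04 CPM), with a log2 response of 0.34 (SE 0.12, adjusted p = 0.90). In line 102 its log2 response was 0.05 (SE 0.12). The same limit in line 102 was met by si618049h06(54), with a log2 response of -0.43 (SE 0.16, adjusted p = 0.27), and by pco149655(717), with 0.32 (SE 0.14, adjusted p = 0.34). The log2 response of pco149655(717) in line 55 was 0.11 (SE 0.14). In pco149655(717) the CT_102 libraries had 23.6, 21.5 and 19.8 CPM and the LT_102 libraries 29.0, 23.8 and 28.4 CPM, without overlap. In line 55 the log2 response of si618049h06(54) was 0.30 (SE 0.16), and its CT_55 and LT_55 libraries did not overlap either. The lowest CT_102 library of this gene, 5.18 CPM, lay only just above its highest LT_102 library, 5.13 CPM. Without overlap between temperatures there were 2 of the 8 genes in line 55, against 7.25% of all tested genes, and 3 of 8 in line 102, against 26.2%.

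The responses of the following genes lay within 2 SE of 0 in both lines. LOC100217209 had a log2 response of -0.10 (SE 0.092) in line 55 and 0.06 (SE 0.092) in line 102. LOC100381602 had -0.08 (SE 0.076) and -0.12 (SE 0.076), with its 3 LT_102 libraries below the 3 CT_102 libraries. The gene pco069028 had 0.03 (SE 0.076) and -0.01 (SE 0.075), so a difference between temperatures of the size of its difference between lines lay far outside the error. LOC100283790 had 0.32 in line 55, with the widest error of the family (SE 0.26), and -0.03 (SE 0.26) in line 102. LOC103650665, which lacks the kinase term, had 0.11 (SE 0.15) in line 55 and 0.09 (SE 0.15) in line 102.

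The enzymes that make the substrates of NDPK and use its products were described from a list by EC number, with adenylate, guanylate and UMP-CMP kinases, dTMP kinase, ribonucleotide reductase and related enzymes. Of 66 listed genes 52 were tested. At 25 °C 13 were called higher and 9 lower in line 102, which is 42.3% against 48.1% of all tested genes. At 10 °C 14 were higher and 12 lower, or 50.0% against 51.1%. The response to 10 °C called 0 of the 52 in either line or on the average by edgeR, with 0, 6 and 5 genes at an unadjusted p under 0.05, where 4.43%, 13% and 12.6% of all tested genes lay. The genes named from this list were those called at 10 °C with the highest FPKM. They were LOC100283826, LOC100283896 and LOC103645781, all lower in line 102 and listed under adenylate kinase. Their log2 differences were -1.0 (SE 0.29, adjusted p = 0.010), -1.06 (SE 0.10, adjusted p = 1.9e-06) and -1.21 (SE 0.14, adjusted p = 7.7e-06). The value of LOC100283826 rested on LT_55 replicate 3. Its CPM was 598, 477 and 1054 in LT_55 against 327, 325 and 449 in LT_102, and without that replicate its log2 difference was -0.57, under the fold threshold. Ranked by CPM, 2 of these 3 genes stay and LOC103652296, listed under dTMP kinase, takes the place of LOC103645781. LOC103652296 had a mean of 274 CPM and a log2 difference of -1.02 (SE 0.074, adjusted p = 1.7e-07) and was chosen after its values were seen. The descriptions of LOC100283826 and LOC100283896 name a cysteine protease 1, that of LOC103652296 a spermatogenesis-associated protein 20 and that of LOC103645781 a hypothetical protein, so none of the 4 descriptions names the enzyme of the list.

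On the hydrogen peroxide branch of the plant MAP kinase map, the list of OXI1, ANP1, MPK3, MPK6 and catalase entries held 20 genes, of which 17 were tested. Between the lines 5 were called higher and 5 lower in line 102 at 25 °C, and 4 higher and 5 lower at 10 °C. These are 58.8% and 52.9% of the list, against 48.1% and 51.1% of all tested genes. In the response to 10 °C 0 of the 17 were called by edgeR in line 55 (0.0522% of all tested genes) and 0 in line 102 (0.679%). At an unadjusted p under 0.05 there were 2 in line 55 (4.43% of all) and 1 in line 102 (13% of all). For each of 4 kinase entries the gene with the highest FPKM is given, and all 4 are also the highest in CPM. Under the MPK6 entry this was mpk2, a MAP kinase that phosphorylates targets at the end of the cascade. It was lower in line 102, and the log2 difference was -0.65 (SE 0.19, adjusted p = 0.0096) for the control temperature and -0.82 (SE 0.19, adjusted p = 0.0020) for the low temperature. Replicate 3 of line 55 was the highest library at each temperature, with 176 CPM beside 125 and 119 in CT_55 and 198 CPM beside 139 and 119 in LT_55. Without CT_55 replicate 3 the difference was -0.44 and without LT_55 replicate 3 it was -0.56 on the log2 scale, both under the fold threshold. Under the OXI1 entry, LOC107403167 was also lower in line 102, where the log2 difference was -1.29 in CT (SE 0.17, adjusted p = 3.9e-05) and -1.37 in LT (SE 0.17, adjusted p = 2.2e-05). Under the ANP1 entry LOC103642154, described as a MAP3K epsilon protein kinase, had 0.07 (SE 0.092) and 0.17 (SE 0.092). Under the MPK3 entry gpm355 had 0.51 (SE 0.23) and 0.56 (SE 0.23), both below the fold threshold. It passed the rule at 25 °C without CT_55 replicate 3 (0.80) or CT_102 replicate 3 (0.61), and at 10 °C without LT_55 replicate 1 (0.70), LT_55 replicate 3 (0.60) or LT_102 replicate 3 (0.71).

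The genes whose log2 CPM was most like that of si618049h06(54) over the 12 libraries, out of 19344 compared genes whose FPKM averaged 1 or more, were LOC103633575, LOC103640598 and LOC100191149. LOC103633575 encodes a pentatricopeptide repeat protein, had 2.23 to 3.44 CPM and correlated with a Pearson r of 0.929. LOC103640598 is uncharacterized, had 16.6 to 26.2 CPM and r was 0.900. LOC100191149 encodes methionine aminopeptidase 1D of chloroplasts and mitochondria, had 10.6 to 16.4 CPM and r was 0.886. The libraries share groups and depth, so these values are descriptive. Among the family, the correlation with si618049h06(54) ran from -0.448 for pco069028 to 0.438 for LOC100283790.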

How the data were processed

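Poly(A) RNA of embryos was sequenced in 12 libraries. The submitters' processing notes name HISAT, StringTie and edgeR and the build B73 RefGen_v4. The deposited table gives the authors' read count per gene and library, and the authors' FPKM, which scales this count to library size and a length. Counts were tested with edgeR 4.0.16 (R 4.3.3): genes were kept when 3 or more libraries reached an FPKM of 0.5, with TMM scaling, the 4 groups in 1 quasi-likelihood model, and Benjamini-Hochberg adjustment over all 22985 tested genes. Genes were to be ranked on FPKM, and CPM was used instead once the lengths behind the FPKM were found not to follow the genes. The SE is the log2 fold change divided by the square root of F. The code was tested on simulated data. DESeq2 1.42.0 and limma 3.58.1 on log2(FPKM + 0.1) were alternatives, with other filters, scaling and thresholds, counts divided by 4 and each library left out. Other columns of the table were not used as measurements. Library totals of 44028579 to 67873652 set the counting precision, and a gene with 41 counts is measured far less precisely than one with 30894.

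Genes named are all 9 K00940 genes, the 3 most correlated with si618049h06(54), up to 3 of the nucleotide-supply list and the gene with the highest FPKM under each of 4 kinase entries. Members and lists were chosen with earlier results of these data known. Whether equal replicate numbers pair samples was checked from deviations around group means. Of 18 pairs, 4 correlated above 0.1, and 7 of 12 libraries correlated best with one of their own number. This does not settle whether the samples are paired. The main model has no replicate block, and a fit with such a block is given below. The qRT-PCR and GWAS were not analysed here. Tables and plots were made with matplotlib 3.10.9 under Python 3.11.15.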

Additional observations from a re-analysis of the deposited data

Results flagged for a closer look

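The fitted response of si618049h06(54) to 10 °C had opposite directions in the 2 lines, and it was called in neither. It was 0.30 (SE 0.16) on the log2 scale in line 55, within 2 SE of 0, and -0.43 (SE 0.16) in line 102. All 3 LT_55 libraries (6.38 to 7.38 CPM) lay above the 3 CT_55 libraries (5.25 to 5.73 CPM), and all 3 LT_102 libraries (4.03 to 5.13 CPM) lay below the 3 CT_102 libraries (5.18 to 7.25 CPM). Temperatures without overlap were found in 7.25% of all tested genes in line 55 and in 26.2% in line 102. The share of genes with opposite separation in the 2 lines is not given. The line by temperature interaction was -0.73 on the log2 scale (SE 0.23). In edgeR's quasi-likelihood test its p was 0.0071 without adjustment and 0.57 after adjustment over all tested genes. Over the alternatives the interaction ran from -0.83 to -0.59 and the adjusted p from 0.22 to 0.91. The study had made si618049h06(54) a candidate by its difference between the lines at 10 °C in these same libraries. The p-values of the interaction are not independent of that choice. In the other 7 tested genes the libraries did not separate in this way in both lines, although the fitted responses of LOC100217209, LOC100283790 and pco069028 also had opposite signs in the lines, and the genes were not tested against one another.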

How the results depend on the processing

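Of 1104 values of the 8 tested genes in 6 comparisons, each under up to 25 alternatives, 1074 kept their direction. The other 30 belong to values that were not called, the largest of which was 0.14 in size on the log2 scale. The alternatives that change only the fold threshold or the kind of p-value reuse the main log2 values. Their direction could not turn. Leaving out a library of a group outside a comparison also moves its value little. The count of kept directions therefore overstates how far the values were tried. Members called between the lines numbered 3 at 25 °C and 4 at 10 °C, and 2 to 3 and 3 to 4 when single libraries were left out. At a log2 threshold of 1 they were 2 and 1. The share of all tested genes is not given for these alternatives. The counts show only how the calls of the members move. At an unadjusted p the calls for temperature rose from 0 to 1 in line 55, 2 in line 102, 2 on the average and 1 in the interaction. In all other alternatives for temperature and interaction 0 members were called. The mean share of LOC100217209 was 73.7% of the summed FPKM and 60.2% of the summed CPM, because the FPKM carries the implied lengths.

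Direction turned only in values near 0, and the cause was not tested. With limma on FPKM the difference between the lines of pco149655(717) at 25 °C was 0.012 (pseudocount 0.1) and 0.011 (pseudocount 1). With single libraries left out it ran from -0.10 to 0.075, and that of si618049h06(54) from -0.046 to 0.19. The response in line 55 ran from -0.18 to 0.018 for LOC100217209, from -0.017 to 0.27 for LOC103650665, from -0.019 to 0.057 for pco069028 and from -0.044 to 0.21 for pco149655(717). The response in line 102 ran from -0.19 to 0.18 for LOC100283790, from -0.0058 to 0.087 for LOC100283855 and from -0.041 to 0.040 for pco069028. The response averaged over both lines ran from -0.058 to 0.039 for LOC100217209, from -0.012 to 0.25 for LOC100283790, from -0.015 to 0.033 for pco069028 and from -0.12 to 0.0042 for si618049h06(54). The interaction ran from -0.086 to 0.0068 for LOC100381602, from -0.18 to 0.11 for LOC103650665 and from -0.067 to 0.015 for pco069028.

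With the replicate number as a block, 2 members were called between the lines at 25 °C and 4 at 10 °C, and 0 for temperature. LOC100283790 at 25 °C was then at -0.58 and no longer called. The correlation of same-numbered libraries ran from -0.081 to 0.53, and 7 of 12 libraries correlated best with one of their own number. Leaving out single libraries does not remove an effect that same-numbered libraries share. The adjusted p as the rule for the lines called 2 and 4 members. For this rule and for the block, the share of all tested genes is not given either. LOC103648618 had 41 to 103 counts per library, which limits its precision. Of the named pathway genes, mpk2 at 25 °C was at -0.57 and not called in either limma fit, and gpm355 was at 0.59 and called with a pseudocount of 0.1 at both temperatures.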
